A study of Drosophila simulans with 12 samples.

Results

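The genes described here encode nucleoporins, the proteins that build the nuclear pore. They were taken by name from the platform annotation: symbols that start with Nup and a digit, leaving out Nup160 and Nup98-96, together with mbo, Mtor, Gp210, Ndc1, Aladin and Elys. This gave 22 genes of 12071 that carried a single symbol on either of the array designs, and all 22 were on both designs. Mtor and Gp210 had no probe set under those symbols and were not analysed here. A probe set is a group of short probes whose signals are summarised as 1 intensity. Each member had 1 probe set on the testis design, and on the abdomen design only Nup54 had 2.

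Expression was measured in Drosophila simulans males of a sterile and a fertile introgression line. Males of both lines carry a D. mauritiana segment of the X chromosome, the S variant at the OdsH locus in the sterile line and the F variant in the fertile line. Per the series design, the segments differ in about 3 Kb that hold exons 3 to 4 of the homeobox gene OdsH. Testes were dissected from on average 150 males and abdomens from 50 males aged 3 to 4 days, and 3 extractions per line and tissue gave 12 arrays in 4 groups. The comparison is of 1 sterile line with 1 fertile line, so a difference between them cannot be assigned to the 3 Kb stretch. Since no label ties the 3 extractions to separate cultures, the p-values describe the spread between extractions, which may be technical. Whole organs were measured, so fewer cells of a type and less RNA per cell cannot be told apart.

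The nuclear pore complex spans the nuclear envelope and carries proteins and RNA between nucleus and cytoplasm. An outer ring and an inner ring form its scaffold, membrane nucleoporins anchor it, and channel nucleoporins rich in phenylalanine-glycine repeats fill its centre. Filaments on the cytoplasmic side and a basket on the nuclear side dock cargo and messenger RNA. Transport receptors of the importin and exportin families cross the channel, and the GTPase Ran gives the traffic its direction. Pore genes are expressed in most cells, and some nucleoporins also bind chromatin away from the pore.

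Over all non-control probe sets, log2 signals of 2 arrays from 1 line correlated at 0.993 to 0.995 in testis and 0.903 to 0.918 in abdomen, and those from different lines at 0.968 to 0.969 and 0.894 to 0.922. Probe sets are not independent replicates in these correlations. Sterile testis arrays had medians of 212.2 to 216.2 and fertile ones of 219.4 to 221.9, an offset that the standard errors leave out. OdsH itself averaged 127.6 ± 4.33 (SD, n = 3) in the testis of sterile and 165.3 ± 25.1 in that of fertile males, and 28.5 ± 18.1 and 34.4 ± 17.2 in abdomen. The 19 markers of spermatocytes and spermatids had a summed testis intensity of 82491 to 83710 on sterile and 83975 to 84763 on fertile arrays. In abdomen the midgut markers summed to 369415 to 493275 on sterile and 380404 to 473144 on fertile arrays. Of 17 midgut markers tested there 2 were higher and 1 lower, where 0.544% of all tested probe sets passed in either direction. The 10 accessory gland and duct markers summed to 6432 to 7267 on sterile and 4219 to 5402 on fertile abdomen arrays, without overlap. Of 7 tested 1 was higher and 0 lower. That was Acp95EF, at 4667 ± 656.8 (SD, n = 3) in sterile and 1855 ± 428.8 in fertile abdomen. The 19 spermatocyte and spermatid markers summed to 80545 to 100355 and 81543 to 111983 in abdomen. The 9 fat body markers in abdomen summed to 44487 to 141393 and 38526 to 104703. Among them the yolk protein gene Yp1 averaged 16358 ± 27787 (SD, n = 3) in sterile and 8944 ± 14888 in fertile abdomen. Abdomen arrays thus differed widely within each line in some transcripts. The tissues were measured on different designs, so these sums do not rank them. Some markers of other cells differed between the lines in testis, where 22.6% of all tested probe sets were higher and 37.8% lower. The 16 midgut markers summed to 1960 to 2041 on sterile and 18218 to 18461 on fertile testis arrays, with 10 of 10 tested lower. Mal-A1 was at or below 0 on every sterile array, with a mean of -12.2 ± 10.7 (SD, n = 3) before values below 0 were set to 0. A marker detected in the fertile line alone could enter the test, so the count of lower markers is not independent of the filter. The 7 markers of germline stem cells and spermatogonia summed to 2953 to 3146 and 3579 to 3742, with 3 of 6 tested lower and 1 higher. The 12 accessory gland and duct markers summed to 51293 to 52267 and 55594 to 56124, with 6 of 11 tested lower and 1 higher. The 9 fat body markers summed to 7819 to 7905 and 9051 to 9308, with 3 of 4 tested lower. The 6 markers of somatic cyst, hub and sheath cells summed to 1179 to 1261 and 1131 to 1197, with 2 of 4 tested higher and 1 lower. The 16 muscle markers summed to 15494 to 15926 and 15883 to 16045, with 2 of 15 tested higher and 4 lower, and of the 17 spermatocyte and spermatid markers tested 3 were higher and 5 lower. The part of these tissues in the nucleoporin signals was not tested.

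In sterile testis, Nup133 stood furthest below its fertile level among the tested nucleoporin genes, Nup93-2 was lower by less, and the other 15 tested had log2 fold changes between -0.15 and 0.19. Nup133, a scaffold protein of the outer ring, was 1.71-fold lower and Nup93-2, a scaffold protein of the inner ring, 1.32-fold lower. Of 17 members tested, 9 passed limma's adjusted p under 0.05, 6 higher and 3 lower in the sterile line. That is 52.9% of the tested members, against 60.4% of all 9927 probe sets tested. The share called among nucleoporins was therefore near the background and is no result about them. Signals were compared as log2(intensity + 16). The median log2 fold change of sterile over fertile was 0.05 over the tested members and -0.04 over all tested probe sets. The median size of change was 0.10 over the members and 0.14 over all tested probe sets. The 3 sterile values lay wholly above the fertile ones in 6 tested members and wholly below in 3, or 52.9% in all, against 64.3% of all tested probe sets. Testis probe sets entered the test when either line had present calls, the authors' detection calls, on all of its 3 arrays, and 15 of the 17 tested members were present on all arrays of both lines.

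**Figure D1:**
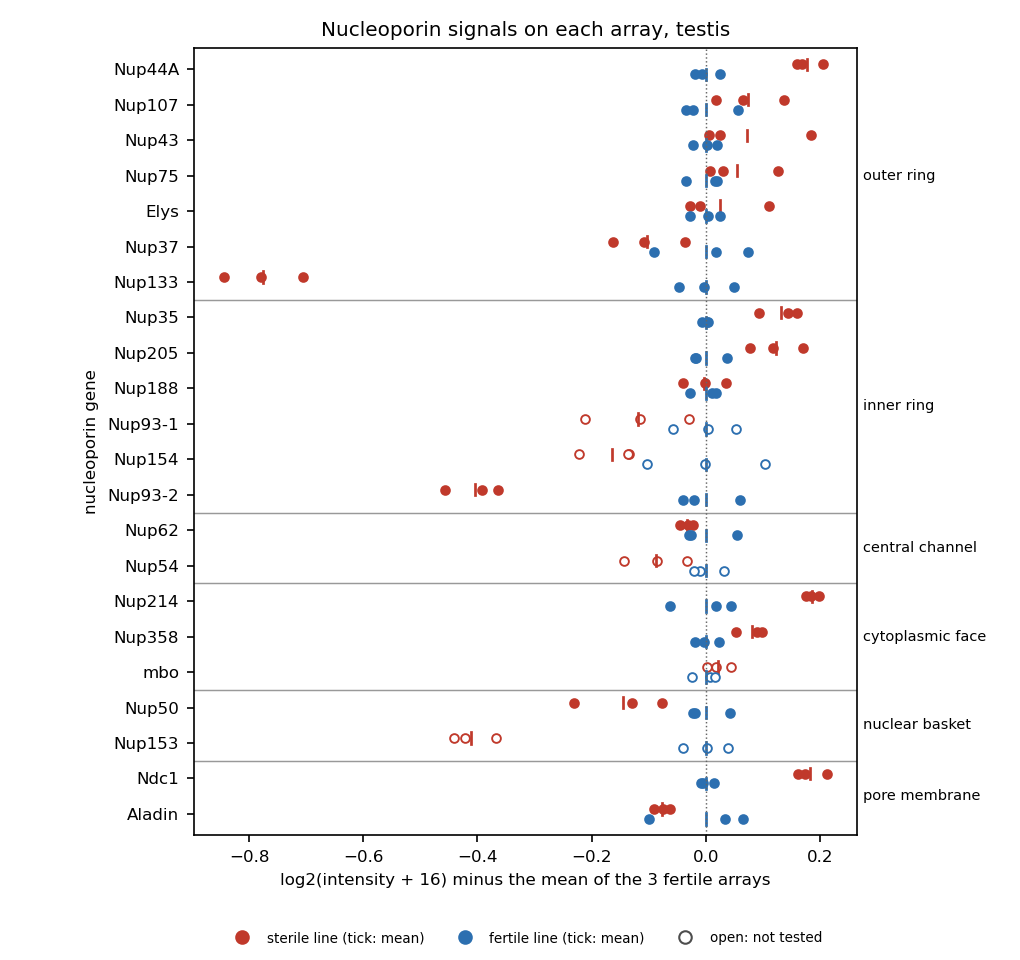
Testis signal of each nucleoporin gene on each of the 6 arrays, as log2(intensity + 16) minus the mean of the 3 fertile arrays, grouped by place in the pore. Red points are sterile and blue points fertile arrays, ticks are means over 3 arrays, and open points were not tested. Nup133 and Nup93-2 lie furthest to the left among the filled points, and the 6 members that rose lie less than 0.2 to the right on average.

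The outer ring, which shapes the scaffold on both faces of the pore, had all 7 of its members tested, with 1 higher, 1 lower and 5 that did not pass. Nup133 read 265.3, 239.5 and 251.3 on sterile arrays A, B and C, and 428.2, 441.9 and 458.5 on the fertile ones. Every sterile value lay far below every fertile one. The log2 fold change was -0.78 ± 0.05 (SE, limma adjusted p = 1.68e-09), and 2.29% of all tested probe sets had a lower value. Nup44A, the fly Seh1 subunit of the outer ring, which also serves in amino acid signalling to TOR, read 822.4, 827.2 and 849.3 on sterile arrays and 747.6, 731.5 and 725.1 on fertile ones. The groups did not overlap, and Nup44A rose by 0.18 ± 0.03 on the log2 scale (SE, limma adjusted p = 0.00021). Nup107, a further scaffold subunit that binds Nup133, had a log2 fold change of 0.07 ± 0.06 (limma adjusted p = 0.27). Its 95% interval, from -0.04 to 0.19, does not reach the value of Nup133. Nup75, the fly Nup85 subunit, averaged 861.1 ± 38.5 (SD, n = 3) on sterile and 828.2 ± 17.9 on fertile arrays, and Nup43 511.1 ± 36.4 and 484.9 ± 7.41. In Nup43 a single sterile array, A at 552.9, stood above the other sterile values of 493.7 and 486.7. Nup37 measured 516.7 ± 23.4 in sterile and 556.1 ± 33 in fertile testis (limma adjusted p = 0.0776), and passed as lower without sterile C (adjusted p = 0.0409) or fertile B (adjusted p = 0.0196). Elys, a chromatin-binding protein that recruits the outer ring when pores assemble, measured 1184 ± 63.9 and 1163 ± 21.4, with a 95% interval of the log2 fold change from -0.05 to 0.10. All 5 of these had overlapping groups.

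**Figure D2:**
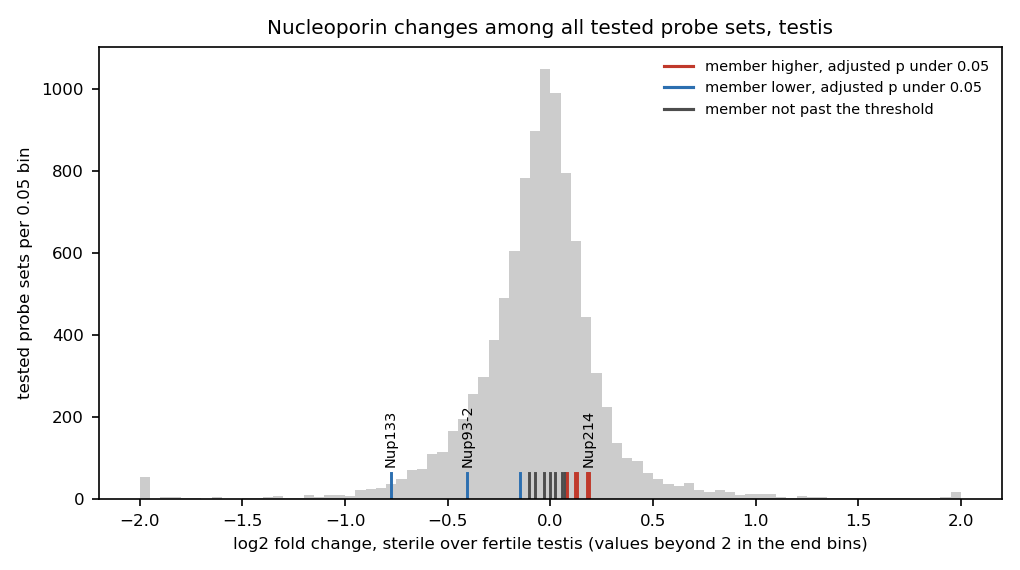
Histogram of log2 fold changes of sterile over fertile testis for the 9927 tested probe sets in bins of 0.05 (values beyond 2 in the end bins), with a tick for each of the 17 tested nucleoporin genes. Red ticks rose, blue ticks fell and grey ticks did not pass the threshold; Nup133, at -0.78, lies in the left tail and the other members in the bulk.

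The inner ring lines the pore membrane and holds the channel proteins. Of its 6 members 4 were tested, and 2 rose, 1 fell and 1 did not pass. Nup93-2, one of the 2 fly genes for the ring's linker protein, read 336.2, 329.3 and 313.9 on sterile arrays and 456.5, 424.7 and 430.6 on fertile ones. All sterile values were lower, and the log2 fold change was -0.40 ± 0.05 (SE, limma adjusted p = 1.87e-06), with 10.2% of tested probe sets at a lower value. The other gene for this linker, Nup93-1, was called present on 33% of sterile and 0% of fertile arrays and was not tested; it read 598.4 to 681 in sterile and 667.3 to 722.4 in fertile testis, with overlap. Nup35, a membrane-binding protein of the inner ring, read 2645, 2772 and 2740 on sterile arrays and 2485, 2468 and 2484 on fertile ones. It rose by 0.13 ± 0.02 (limma adjusted p = 0.000116) with no overlap. Nup205, a large scaffold protein, read 354.5, 365.1 and 379.3 on sterile arrays and 330.8, 344.2 and 330.6 on fertile ones, without overlap. It rose by 0.12 ± 0.05 (limma adjusted p = 0.0368). It was present on 100% of sterile but on 33% of fertile arrays, so it entered the test only through the line where it was higher. The call of Nup205 was lost without sterile B, sterile C, fertile A or fertile C (adjusted p up to 0.133). Nup188, the structural relative of Nup205, measured 235.6 ± 6.48 and 236 ± 4.28, and its 95% interval ran from -0.12 to 0.12. Nup154, whose loss is known to block gamete formation in D. melanogaster of both sexes, was present on 33% of sterile and 66% of fertile arrays. It was not tested and read 155.6, 166.5 and 166.2 in sterile and 170.5, 199.2 and 184.2 in fertile testis, with no overlap.

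On the cytoplasmic face, both tested members rose. Nup214, which docks messenger RNA export factors, read 1508, 1493 and 1484 on sterile arrays and 1354, 1255 and 1329 on fertile ones. Its rise of 0.19 ± 0.03 (limma adjusted p = 5.69e-05) was the highest value among the nucleoporins, and 14% of all tested probe sets had a higher one. Nup358, the fly RanBP2, a filament protein that binds Ran, read 1229, 1261 and 1269 against 1168, 1204 and 1181. It rose by 0.08 ± 0.03 (limma adjusted p = 0.0211), with no overlap but only 1229 against 1204 between the nearest arrays. The call of Nup358 was lost without sterile C, fertile A or fertile C (adjusted p up to 0.0825). mbo, the fly Nup88, which partners Nup214 and holds back the export receptor, had no present call on any of the 6 arrays, at intensities of 819 to 860, and was not tested.

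In the nuclear basket, Nup50, a cofactor of importin release, fell by 0.15 ± 0.05 on the log2 scale (SE, limma adjusted p = 0.0154). Nup50 read 381.6, 426.3 and 410.5 in sterile and 444.2, 464.7 and 443.2 in fertile testis, without overlap. The fall did not pass after median centring (adjusted p = 0.0843) or quantile normalization (adjusted p = 0.172), nor without sterile A (adjusted p = 0.0852) or fertile B (adjusted p = 0.0695). Nup153, a basket protein that also binds chromatin, had no present call on any testis array and was not tested. It read 127.9, 120.6 and 122.5 in sterile and 164.5, 174.7 and 169.8 in fertile testis, so that the groups lay apart. In a fit of all 18769 probe sets, where 40.1% were called, Nup153 was lower in sterile testis (limma adjusted p = 0.000748); no fold is given, since neither line had a present call.

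Of the pore membrane proteins, Ndc1, a transmembrane anchor, read 1580, 1622 and 1566 on sterile arrays and 1390, 1412 and 1393 on fertile ones. Ndc1 rose by 0.18 ± 0.03 (limma adjusted p = 1.56e-05) and its groups did not overlap. Aladin, which Ndc1 tethers to the pore and which is mutated in human triple A syndrome, measured 340.8 ± 3.58 in sterile and 360.7 ± 22.5 in fertile testis (limma adjusted p = 0.214). Aladin was present on 66% of sterile and 100% of fertile arrays. In the central channel, Nup62 measured 887.3 ± 7.4 in sterile and 908.5 ± 30.5 in fertile testis, with a 95% interval of the log2 fold change from -0.10 to 0.04. Its channel partner Nup54 was called present on 33% of sterile and 0% of fertile arrays and was not tested; it read 696.6 to 753.6 in sterile and 759.8 to 788.5 in fertile testis, without overlap.

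Which small changes passed depended on how arrays were scaled, while no member that passed on the deposited scale changed sign. With arrays centred on their medians 8 members rose and 2 fell, and after quantile normalization 9 rose and 2 fell. Of all tested probe sets 29.6% were then higher and 29.6% lower after median centring, and 30.5% higher and 29.8% lower after quantile normalization. The median over members moved from 0.05 to 0.10 and 0.12. The median over all tested probe sets moved from -0.04 to 0.01 under both. Nup75 passed as higher under both scalings, as did Nup43, and Elys passed after quantile normalization. Nup133 and Nup93-2 were lower under every alternative tried, at -0.81 to -0.68 and -0.42 to -0.34, and Nup214, Ndc1, Nup44A and Nup35 were higher under every alternative tried.

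**Figure D3:**
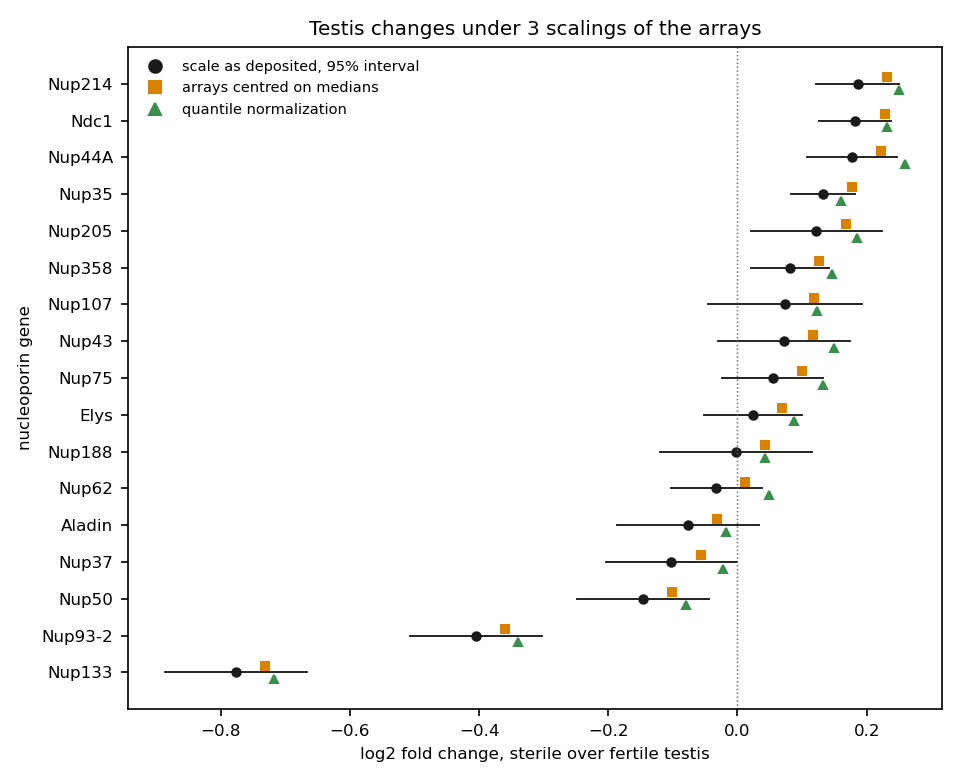
Log2 fold change of sterile over fertile testis for the 17 tested nucleoporin genes under 3 scalings of the arrays; black circles with 95% intervals are the deposited scale, orange squares median centring and green triangles quantile normalization. Both scalings shift every member to the right, and Nup188 and Nup62 cross 0, while Nup133 stays between -0.78 and -0.72.

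For testis, the authors' deposited table marks 2 of the 22 nucleoporin genes, Nup133 and Nup93-2, where 6.57% of all its probe sets are marked. Its fold score of fertile over sterile is 1.77 for Nup133 (p-value 0.000314) and 1.34 for Nup93-2 (p-value 0.00334) in the authors' deposited table. The authors' deposited table gives Nup153 a fold score of 1.38 (p-value 0.00979) without a mark. That table describes the same arrays, so it adds no independent measurement.

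Genes that work with the pore went both ways in sterile testis, and their counts stand against 22.6% higher, 37.8% lower and 60.4% in either direction among all tested probe sets. By that measure 10 of 16 import genes and 10 of 15 messenger RNA export genes in either direction are near the background. By direction 8 of the 16 import genes were higher and 2 lower. Among the 8, alphaKap4 was at or below 0 on every fertile array. A gene detected in the sterile line alone could enter the test, so the count of higher genes is not independent of the filter. After median centring 10 import genes were higher and after quantile normalization 11, against 29.6% and 30.5% of all tested probe sets. Whether the direction of this list differs from the background was not tested. Among 4 partners outside the naming rule, Gle1, which activates the export helicase, rose by 0.27 ± 0.05, and that helicase, Dbp80, fell by 0.14 ± 0.03. Sec13, shared by the outer ring and the COPII vesicle coat, fell by 0.11 ± 0.03 on the deposited scale but did not pass after median centring (adjusted p = 0.0723) or quantile normalization (adjusted p = 0.159). Dbp80 did not pass after quantile normalization (adjusted p = 0.0673). Of 16 import receptors and adaptors tested 8 rose and 2 fell (median 0.07), among them msk, the fly importin-7, at -0.30 ± 0.03, Ntf-2, the import factor of Ran, at 0.27 ± 0.03, and alphaKap4, an importin alpha. The lists overlap. This list also holds ebo and Ranbp21, counted again among the export receptors, and Nxt1, which rose and is counted again among the messenger RNA export genes. Ntf-2 is also in the Ran cycle list. Dbp80 and Rae1 stand both with the partners and with the messenger RNA export genes. The mean of alphaKap4 was 1962 ± 65.3 (SD, n = 3) on sterile arrays and -53.1 ± 9.23 on fertile ones, and no fold is given. Of 4 export receptors, emb, the fly CRM1, rose by 0.14 ± 0.04 and Cse1, which returns importin alpha to the cytoplasm, fell by 0.08 ± 0.03. The fall of Cse1 did not pass after median centring (adjusted p = 0.421), and the sign turned after quantile normalization, at 0.01. In the Ran cycle list 2 of 7 rose and 2 fell (median 0.02), with Ran at 1217 ± 108.8 in sterile and 1453 ± 31.6 in fertile testis. RanBPM, at -0.37 ± 0.06, is in this list by its name, and a part of it in the cycle was not tested.

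Of 15 messenger RNA export genes tested 5 rose and 5 fell (median -0.04). The exon junction gene tsu had a log2 fold change of -0.45 ± 0.03, the THO complex gene tho2 -0.30 ± 0.05, and PCID2, of the TREX-2 complex, which docks at the basket, 0.27 ± 0.04. Nuclear lamina and inner membrane genes counted 2 higher and 3 lower of 9 (median -0.05). baf, which bridges chromatin to the envelope, averaged 1210 ± 36.9 (SD, n = 3) in fertile and 1821 ± 44 in sterile testis and rose by 0.58 ± 0.03 on the log2 scale, while MAN1, an inner membrane protein, fell by 0.42 ± 0.03 and Msp300, a nesprin, by 0.34 ± 0.02. In the SUMO pathway, part of which is tethered to the pore, 2 of 4 fell and none rose (median -0.09), Ulp1 by 0.19 ± 0.05 and Aos1 by 0.10 ± 0.04. Aos1 did not pass under either scaling (adjusted p = 0.2996 and 0.782). All named pathway values without a stated p had limma adjusted p under 0.05 on the deposited scale, where the median over all tested probe sets was -0.04. In abdomen, where 3 to 11 genes of each list were tested, 0 were called, against 0.544% of all tested probe sets. That count is near the background and is no result about the pathway.

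In abdomen no nucleoporin gene passed the test. Of 22 genes 12 reached the filter, the median intensity of the non-control probe sets, and 0 of 12 were called by limma, with 0 at an unadjusted p under 0.05, against 0.544% of 6983 probe sets called and 8.12% at an unadjusted p under 0.05. The standard errors of the 12 ran from 0.21 to 0.57 on the log2 scale, against 0.02 to 0.06 in testis, and the 95% intervals reached 0.48 to 1.29 to either side. Changes of the sizes seen for most members in testis were therefore not detectable in abdomen. The groups did not overlap in 2 of 12, or 16.7%, against 14.1% of all tested probe sets. The median log2 fold change was 0.06 over the 12 and 0.01 over all tested probe sets.

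The abdomen values spread widely within lines. Nup50 had the highest log2 fold change of the tested members, 0.63 with a 95% interval from -0.06 to 1.33, and read 444.5, 597.3 and 434.8 on sterile arrays A, B and C and 269.8, 475.6 and 227.3 on fertile ones. One fertile array, B, lay within the sterile range. Nup62 read 367.5, 372.3 and 533.6 in sterile and 344.6, 281.9 and 277.7 in fertile abdomen, without overlap (log2 fold change 0.46, 95% interval -0.12 to 1.04). Nup54 had the lowest value, -1.01 with an interval from -2.30 to 0.28, which rested on sterile array C. Its brighter probe set read 334.3, 264.2 and 50.3 in sterile and 383.2, 336.1 and 361.9 in fertile abdomen. Its dimmer probe set, below the filter, was also low on sterile C, at 57.7 against 175.7 and 244.2 on sterile A and B. Without sterile C the log2 fold change of Nup54 was -0.26. Elys read 528.7 on sterile A but 240.7 and 239 on sterile B and C, against 425.9, 495.9 and 372.1 in the fertile line. Without sterile A its log2 fold change moved from -0.43 to -0.80 and still did not pass (limma adjusted p = 0.584).

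The other tested members lay closer to 0. Nup44A measured 584.7 ± 47.9 in sterile and 473.7 ± 140.9 in fertile abdomen (SD, n = 3), Nup37 277.1 ± 23.6 and 222.3 ± 90.1, and Nup188 258.1 ± 83.6 and 226.8 ± 78.5. Nup35 measured 505.7 ± 102.6 and 485.7 ± 122.2, Nup75 474.5 ± 14.2 and 458.3 ± 83.9, and Nup43 287.1 ± 80 and 306.7 ± 80.2. Nup214 measured 583.9 ± 98.9 in sterile and 673.8 ± 86.5 in fertile abdomen. Nup93-2, lower in sterile testis, measured 246.5 ± 72.5 and 274.7 ± 11.8 in abdomen, with a 95% interval of the log2 fold change from -0.89 to 0.52. That interval covers both 0 and the testis value of -0.40.

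Below the filter in abdomen were Nup133, Nup107, Nup205, Nup93-1, Nup154, Nup153, Nup358, mbo, Ndc1 and Aladin. Nup133 read 20.6, 17.1 and 13.2 in sterile and 11.9, 39 and 26.8 in fertile abdomen, with overlap, so its testis difference could not be tested there. Nup153 read 102.7, 74.9 and 54.2 in sterile and 10.5, 14 and 51.7 in fertile abdomen, the reverse of its order in testis, with 54.2 and 51.7 as the nearest values. In a fit of all probe sets Nup153 did not pass in abdomen (limma adjusted p = 0.616). Nup205 also had all sterile values, 29.2 to 59.7, above the fertile ones, 18.5 to 26.4. The remaining 7 had overlapping groups, with Nup154 on fertile B, at 301.9, far above its other 5 values of 20.2 to 105.5.

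**Figure D4:**
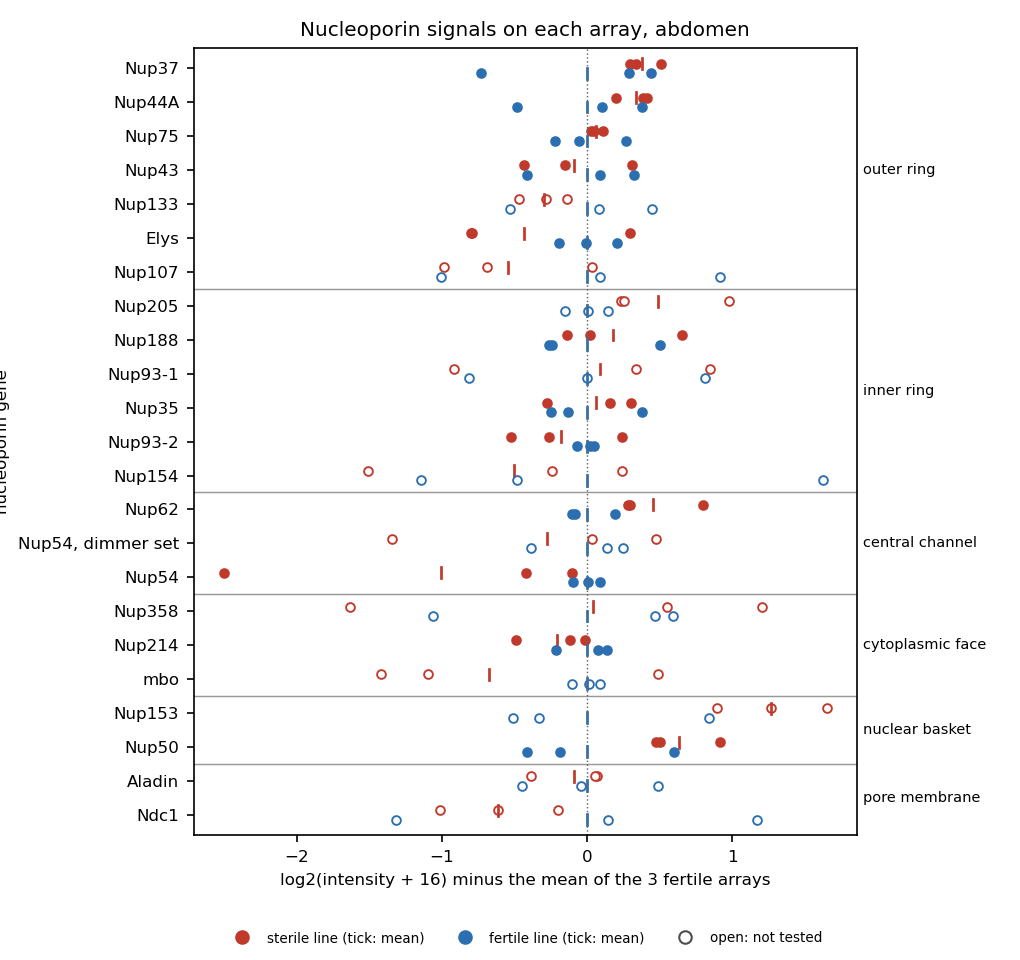
Abdomen signal of each nucleoporin probe set on each of the 6 arrays, as log2(intensity + 16) minus the mean of the 3 fertile arrays, with colours, ticks and open points as for testis; the second, dimmer Nup54 probe set is shown apart. Within-line spread is wide, and sterile C is the lowest point in both Nup54 probe sets.

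Whether the 2 lines differed unlike in the 2 tissues was tested as the testis log2 fold change less the abdomen one, which could be fitted for 11 nucleoporin genes tested in both. None of the 11 passed limma's adjusted p under 0.05, while 5.29% of the 4709 genes fitted passed. Nup50 had the widest gap, at -0.78 ± 0.32 (SE), from -0.15 in testis and 0.63 in abdomen (limma adjusted p = 0.213). Nup62 followed at -0.49 ± 0.21 (limma adjusted p = 0.229), and Nup214 had 0.39 ± 0.19 (limma adjusted p = 0.296). Without fertile abdomen array B the difference for Nup50 was -1.08, and without sterile abdomen array A that for Elys was 0.82. Both passed (limma adjusted p = 0.012 and 0.0165). The fit gives both tissues the same residual variance, although abdomen values spread far more. For Nup62 the SE of the difference, 0.21, is below its abdomen SE alone, 0.26. Dropping an abdomen array also unbalances the groups, which makes the SE too small. Neither pass is therefore read as a difference between tissues. Where the testis and abdomen values of a gene had opposite signs, the abdomen interval included 0, so the signs do not tell the tissues apart.

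**Figure D5:**
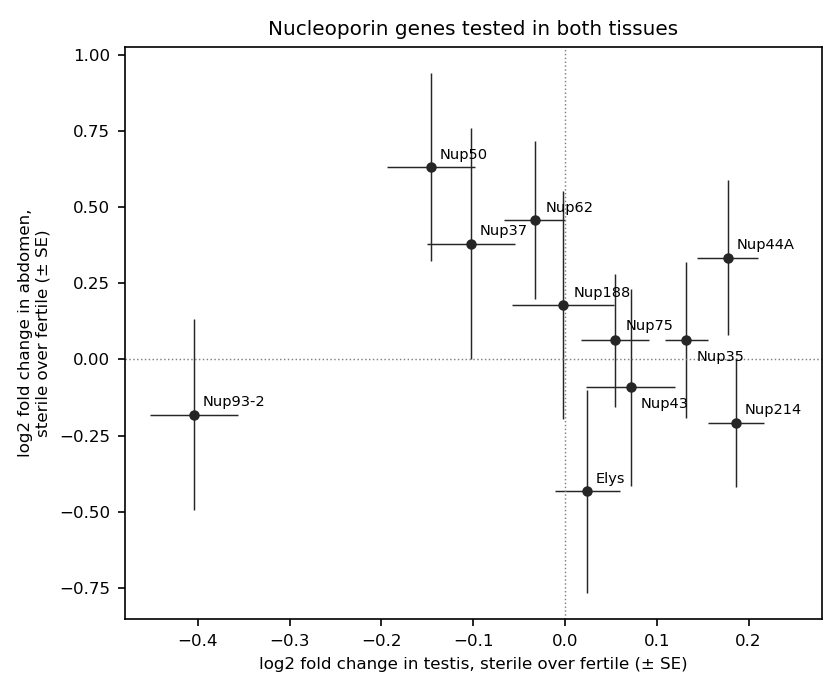
Log2 fold changes (sterile over fertile), with testis horizontal and abdomen vertical, for the 11 nucleoporin genes tested in both tissues, with bars of 1 SE. Abdomen bars are several times longer than testis bars, and Nup93-2 is the point furthest left, at -0.40.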

How the data were processed

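The authors deposited linear intensities. The submitters' processing notes name MAS5, but between 26 and 37 probe sets of each testis array are negative, which MAS5 does not give, so how the testis values were made is not given in the sources used here. The authors' deposited table supplied the percent of present calls per line, a fold score and p-values; its mean column lay within 2 percent or 2 units of the fertile testis mean in 99.7% of probe sets, which sets its direction. Its 12 columns of single arrays, whose names fit samples of either tissue, were left out. Probe mismatches to D. simulans were not corrected, and none of the sequences of the members were used here.

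Values below 0 were set to 0, and log2(intensity + 16) was fitted per tissue with limma 3.58.1 in R 4.3.3 (lmFit, eBayes with an intensity trend, Benjamini-Hochberg over all tested probe sets). Fold changes on this scale understate changes of dim genes. Testis needed present calls on all 3 arrays of a line; abdomen needed the median of 13966 non-control probe sets. A gene was represented by its brightest probe set. Tissues were compared in 1 fit of 12 arrays, with the same residual variance for both tissues. The number of arrays limits the precision. Members, gene lists and tests were chosen with earlier results of these data known. Every member is named; values per array are given for the 6 rises and 3 falls that passed in testis (the rule allowed 6 of each), and at most 3 genes that passed are named per list. Other members given per array were chosen after their values were seen. Deviations from the line means of arrays with the same letter correlated at 0.15 to 0.29 in abdomen and at -0.07 to 0.15 in testis. No label says that a letter marks a shared batch, and the main fits leave the letter out. Scripts were tested on simulated data.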

Additional observations from a re-analysis of the deposited data

Results flagged for a closer look

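Nup153 stood out because every sterile testis value lay below every fertile one, while every sterile abdomen value lay above every fertile one. The nearest abdomen values were 54.2 in the sterile and 51.7 in the fertile line. In either direction, 64.3% of all tested testis probe sets and 14.1% of all tested abdomen probe sets had groups that did not overlap. The gene was outside the fit of genes that passed both filters, so the difference between tissues was not tested there. In a fit of 10756 genes without filters the difference did not pass (limma adjusted p = 0.0919), while 309 genes did. No size is given, since no testis array had a present call and the abdomen signals of 10.5 to 102.7 lay below the filter.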

How the results depend on the processing

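The count of 9 nucleoporin genes called in testis ran from 7 to 11 over all alternatives, including log2(intensity + 1), log2(intensity + 64), no filter, no intensity trend and the mean of all probe sets. With the replicate letter as a replicate block 9 were called in testis and 0 in abdomen and between tissues, and the block changed no count. In abdomen 0 were called under every alternative. Between tissues the leave-one-out counts ran from 0 to 1, the 1 being Elys or Nup50, whose passes rest on an SE that is too small. Of single pathway genes, Cse1 turned from -0.08 to 0.011 after quantile normalization; the cause was not tested. Pathway genes called in testis were 33, with shared genes counted once, and 30 to 34 under the alternatives. On the deposited scale 60.4% of all tested probe sets were called, so this count is no result about the pathway. Without a filter Nup205 did not pass (adjusted p = 0.0708). Small testis changes depend on scaling, dim probe sets have little signal over background, and 1 line per state and 3 arrays per group limit every comparison.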
